A study of Mus musculus with 24 samples.

Results

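Loss of CRTC2 on top of LKB1 loss was examined by comparing untreated mouse embryonic fibroblasts of the *Lkb1*-/-/*Crtc2*-/- clone A1 (DKO A1) with untreated *Lkb1*-/- fibroblasts (LKB1 KO). The 3 libraries labelled DKO_A1, ctrl and the 3 labelled KO, ctrl were taken, 6 of the 24 libraries of the series, and the choice used the labels alone. The series holds RNA-seq counts of 4 genotypes, namely wild-type (WT), LKB1 KO, DKO A1 and a second double-knockout clone, A2, each untreated or given IL-1β for 6 hours, with 3 libraries in each of the 8 groups. Both groups compared here lack LKB1 and received no IL-1β, and they differ by label in *Crtc2*. The cells were immortalized 3T3 fibroblasts grown in DMEM with fetal bovine serum. The *Crtc2* edit was made in LKB1 KO cells by transfecting a plasmid for Cas9, GFP and guide RNAs against the first exon, sorting GFP-positive cells and growing single-cell clones, with the knockout checked on protein by the authors. DKO A1 is therefore 1 clone, so that a property of this clone and an effect of CRTC2 loss cannot be told apart within the comparison. The labels do not say that the 3 libraries of a group came from separate cultures, and p-values measure the spread between these libraries, which may be technical.

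LKB1, encoded by *Stk11*, is a kinase that activates the salt-inducible kinases (SIKs) together with other kinases of the AMPK family. Active SIKs phosphorylate CRTC2 and its relatives, which then stay in the cytoplasm bound to 14-3-3 proteins. Without LKB1 or SIK activity, CRTC2 enters the nucleus, binds CREB and recruits the acetyltransferases CBP and p300 to promoters that hold cAMP response elements (CREs), so that CREB target genes are transcribed.

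The 6 libraries held between 39814837 and 44453613 read pairs on genes, close to the range over all 24 libraries of 38842901 to 48594394. Between 27.28% and 30.97% of their pairs lay on no gene or could not be placed. On the 2 leading principal components of the 6 libraries, the first (79.4% of the variance) separated DKO A1 from LKB1 KO, and the second (13.9%) separated replicate 1 from replicates 2 and 3 in both groups. Replicate 1 stood apart from the others in every group of the series, and leaving out all replicate 1 libraries, an alternative chosen after the data were seen, gave 7025 genes called against 6181 with all libraries. Values below are CPM, the counts of a library scaled to its size with TMM factors, listed for replicates 1, 2 and 3. A gene was called higher or lower in DKO A1 at a false discovery rate (FDR) under 0.05 in edgeR's quasi-likelihood test over 17522 genes.

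*Crtc2* (chr3:90254163-90264125, plus strand, GRCm38), the targeted gene, was measured at 45.2, 41.1 and 42.4 CPM in DKO A1 and 82.1, 79.1 and 82.3 CPM in LKB1 KO. All 3 DKO A1 libraries lay below all 3 LKB1 KO libraries (log2 fold change -0.92, SE 0.067, edgeR FDR = 2.2e-09), while the means of clone A2 and WT were 49.8 and 58.4 CPM. A short edit in the first exon need not remove the transcript, so these counts bear on RNA only. *Stk11* (chr10:80115803-80130682, plus strand) was low in both groups, at 21.8, 21.6 and 20.7 CPM in DKO A1 and 18.7, 16.96 and 16.3 CPM in LKB1 KO, against a mean of 85.99 CPM in WT. The small difference between the groups (log2 fold change 0.30, SE 0.069, edgeR FDR = 0.0016) took the opposite sign, -0.087, once each gene was read relative to the median change of its chromosome, a scaling described with the chromosomes below.

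Of the 17522 genes, 6181 were called (35.3%), 3303 of them higher (18.9%) and 2878 lower (16.4%) in DKO A1. Among these, 761 were higher (4.34%) and 655 lower (3.74%) by more than 1 on the log2 scale, that is by more than 2-fold. The median log2 fold change of all genes was 0.02. For 8663 genes (49.4%) the 3 values of DKO A1 did not overlap the 3 values of LKB1 KO. These shares are the background against which the counts within gene groups below are read.

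Genes of the LKB1-SIK-CRTC pathway were split, with 3 of 20 called higher and 7 lower and a median log2 fold change of -0.06. The largest decrease was that of *Hdac4* (chr1:91928779-92195699, minus strand), a class IIa histone deacetylase that SIKs also phosphorylate, with 30.3, 33.05 and 34.6 CPM in DKO A1 and 82.6, 97.1 and 105 CPM in LKB1 KO. Its groups were far apart (log2 fold change -1.54, SE 0.10, edgeR FDR = 5.3e-10). *Sik1* (chr17:31844250-31855804, minus strand), a SIK whose own gene is a CREB target, was measured at 21.7, 25.8 and 25.96 CPM in DKO A1 and 44.3, 45.1 and 46.6 CPM in LKB1 KO. *Sik1* was thus lower in every DKO A1 library (log2 fold change -0.89, SE 0.14, edgeR FDR = 3.9e-05), near the WT mean of 21.9 CPM. *Crem*, a CREB family member that yields the repressor ICER from a cAMP-responsive promoter, fell as well, from 9.802, 8.75 and 10.9 CPM in LKB1 KO to 5.195, 5.74 and 6.16 CPM in DKO A1 (log2 fold change -0.78, FDR = 0.00015, edgeR). *Crtc1*, a relative of CRTC2, fell by 0.67 on the log2 scale, and *Stradb* and *Cab39*, which encode partners of LKB1, changed by -0.61 and -0.36, the latter no longer called relative to the chromosome medians. *Crtc3* (-0.29) and *Creb1* (-0.23) did not pass the test (edgeR FDR = 0.084 and 0.1), but did with the replicate number as a block (FDR = 0.0009 and 0.0038). *Atf1* (0.07), a relative of CREB, and the acetyltransferase genes *Crebbp* (0.02) and *Ep300* (-0.02) passed in neither. The 3 called higher were *Strada*, *Stk11* and *Sik3*, by 0.42, 0.30 and 0.27. None of these 3 remained called relative to the chromosome medians, where *Sik3* changed sign (-0.056) and 12.4% of all genes were higher and 11.5% lower. With the replicate block 6 members were higher and 9 lower, against 25.6% and 22.5% of all genes, the shares to which the other counts with the block below are to be held.

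CREB target genes were more often lower than higher in DKO A1. Of 26 tested, 13 were called lower and 3 higher, with a median log2 fold change of -0.50, against 16.4% lower and 18.9% higher over all genes. *Areg*, which encodes the EGF receptor ligand amphiregulin, had the lowest ratio. It was measured at 0.366, 0.12 and 0.345 CPM in DKO A1 and 4.14, 2.04 and 3.52 CPM in LKB1 KO (log2 fold change -3.53, SE 0.47, edgeR FDR = 5.8e-06). *Dio2*, the deiodinase that activates thyroid hormone, was at 1.15, 0.864 and 1.77 CPM in DKO A1 and 6.995, 3.41 and 5.52 CPM in LKB1 KO (log2 fold change -2.07, SE 0.42, edgeR FDR = 0.0005). For both genes the highest DKO A1 library lay below the lowest LKB1 KO library, though both were expressed at low levels. Among the phosphodiesterases of the list, which break down cAMP or cGMP, *Pde10a* and *Pde4b* fell, while *Pde4d* (-0.36) passed only with the replicate block (edgeR FDR = 0.097, and 0.0012 with the block). *Pde10a* (chr17:8525372-8986648, plus strand) was at 14.4, 15.2 and 15.5 CPM in DKO A1 and 48.1, 54.5 and 56.7 CPM in LKB1 KO (log2 fold change -1.82, SE 0.12, edgeR FDR = 7.5e-09). *Pde4b* (chr4:102087543-102607259, plus strand) was at 78.7, 92.8 and 88.97 CPM in DKO A1 and 183, 198 and 201 CPM in LKB1 KO (log2 fold change -1.16, SE 0.15, edgeR FDR = 2.6e-06). In WT *Pde10a* had no count and *Pde4b* a mean of 3.75 CPM, so that DKO A1 lay between LKB1 KO and WT.

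All 3 NR4A orphan nuclear receptors, immediate early genes that respond to cAMP, were lower. *Nr4a1* was at 4.41, 4.39 and 4.18 CPM in DKO A1 and 12.2, 8.96 and 9.55 CPM in LKB1 KO (log2 fold change -1.24, SE 0.17, edgeR FDR = 7.7e-06). *Nr4a2* was at 8.999, 7.27 and 11.4 CPM in DKO A1 and 20.1, 18.9 and 22.8 CPM in LKB1 KO (log2 fold change -1.16, SE 0.20, edgeR FDR = 0.00012). *Nr4a3* was at 0.7804, 0.4801 and 0.551 CPM in DKO A1 and 2.08, 2.53 and 2.19 CPM in LKB1 KO (log2 fold change -1.91, SE 0.35, edgeR FDR = 0.0002). No library of one group reached the values of the other for any of the 3 receptors. *Rgs2*, a regulator of G-protein signalling, behaved likewise, with 4.66, 5.497 and 4.27 CPM in DKO A1 and 11.7, 12.02 and 9.76 CPM in LKB1 KO (log2 fold change -1.21, edgeR FDR = 0.00013). Smaller decreases were called for *Junb*, *Nfil3*, *Id1*, *Irs2* and *Dusp1*, between -0.31 and -0.76 on the log2 scale. Of these, *Id1* and *Dusp1* lost their calls without replicate 1 of DKO A1, *Id1* also without replicate 3 of DKO A1 or replicate 1 or 2 of LKB1 KO, and *Junb*, *Irs2* and *Dusp1* relative to the chromosome medians. Against this direction, *Bdnf*, a neurotrophin, was higher at 41.5, 38.4 and 31.1 CPM against 26.4, 21.7 and 19.5 CPM (log2 fold change 0.72, SE 0.15, edgeR FDR = 0.00088). *Atf3* (0.57) and *Cited2* (0.36) were also called higher, but *Cited2* lost its call without replicate 1 or 2 of DKO A1 or replicate 2 or 3 of LKB1 KO and changed sign relative to the chromosome medians (-0.024), and *Atf3* lost it with only the 2 groups in the fit. The serum- and cAMP-induced genes *Fos* (-0.49), *Egr1* (-0.67) and *Per1* (-0.19) did not pass the test, and their values overlapped between the groups. *Ptgs2*, a prostaglandin synthase, was at 99.6, 92.6 and 71.5 CPM in DKO A1 and 177, 104 and 104 CPM in LKB1 KO, and passed only with the replicate block (edgeR FDR = 0.1, and 0.034 with the block).

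**Figure D1:**
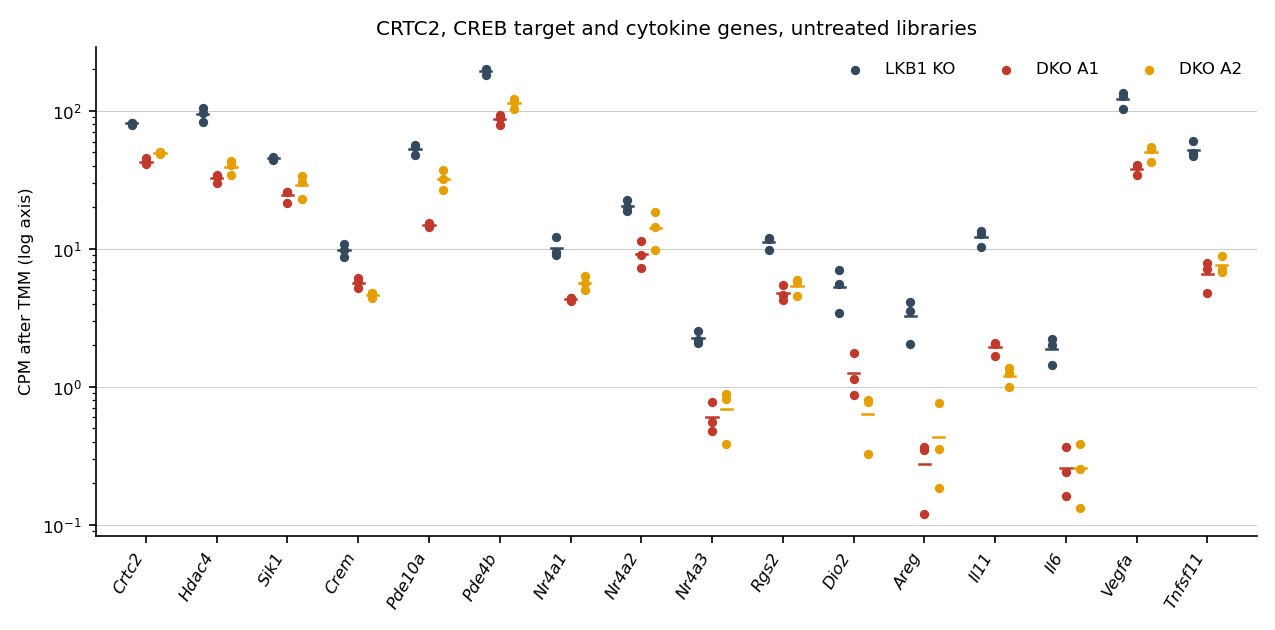
Expression in single libraries of 16 CRTC2 pathway, CREB target and cytokine genes, all picked from those called lower in DKO A1. Points are CPM on a log axis for the 3 untreated libraries of LKB1 KO, DKO A1 and DKO A2, with a bar at each group mean, and the DKO A1 points lie below the LKB1 KO points in all 16 genes, which follows from how they were picked.

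Promoter sequences were searched for the CRE, the element that CREB is known to bind. They were read from RefSeq (GRCm38.p6), as 250 bases before to 50 after each start that RefSeq lists for a gene, which can differ from the gene bounds of GENCODE, and searched on both strands for the full palindromic CRE TGACGTCA and for the short CRE TGACG, whose reverse complement is CGTCA; a full CRE also counts as 2 overlapping short CREs. Windows of 30 bases are printed 5′ to 3′ on the strand of the gene, with the matched letters in capitals. A full CRE was present in *Areg* (chr5:91139527-91139556, plus strand, first base 61 bases before the start), *Dio2* (chr12:90739115-90739144, minus strand, 95 bases), *Dusp1* (chr17:26508597-26508626, minus strand, 143 bases) and *Mitf* (chr6:97991619-97991648, plus strand, 153 bases), a melanocyte-lineage factor and CREB target that is described with the largest decreases. The *Mitf* window is that of an alternative start inside the gene (chr6:97807052-98021349, plus strand), and of the 3 *Mitf* starts in RefSeq the other two held 0 full and 0 short CREs. Which start these cells use was not tested. *Mitf* is no member of the CREB target list, and of the 12 largest decreases only *Mitf* and *Tnfsf11* were looked at singly. For *Dio2* and *Mitf* the bases after the start matched no GENCODE transcript of the gene. Of 4 secreted factor genes called lower that were searched as well, none held a full CRE, *Il6* held 1 short CRE, *Vegfa* held 1 at 1 of its 2 starts, and *Il11* and *Tnfsf11* held 0. Among the CREB targets called lower, *Pde10a* and *Irs2* held neither form.
Areg: gggctggtccgTGACGTCAcgggcggtggc
Dio2: ctctttctcaaTGACGTCAagatctttagc
Dusp1: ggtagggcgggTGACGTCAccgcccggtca
Mitf: gaaaaaaagcaTGACGTCAagccagcaggg
The NR4A promoters held no full CRE but 4 short CREs each, 2 of which lie in the windows shown for *Nr4a1* (chr15:101266613-101266642, plus strand), *Nr4a2* (chr2:57124122-57124151, minus strand) and *Nr4a3* (chr4:48045091-48045120, plus strand).
Nr4a1: CGTCAatggaaccccgcgtgCGTCAcgcgc
Nr4a2: cacgCGTCAcggagcccggccgggcTGACG
Nr4a3: tCGTCAcatTGACGtctcgcattccaggca

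Over all genes with a RefSeq promoter, 2.03% held a full CRE and 23.0% a short CRE in this window. The shares among the genes tested were 3.5% and 34.7%. A full CRE at any of its starts was held by 91 of 2090 genes called lower that had a promoter (4.35%) and by 77 of 2458 genes called higher (3.13%), with 3.36% among genes not called. Short CREs were present in 37.0%, 33.5% and 34.4% of these groups. The groups had 1.32, 1.26 and 1.27 starts per gene, so that genes called lower had more sequence searched. Among genes lower by more than 1 on the log2 scale, 3.81% held a full CRE and 27.6% a short CRE, and among those higher by more than 1 the shares were 1.68% and 22.1%. Of the CREB targets called lower, 12 had a RefSeq promoter, and 3 of these held a full CRE and 10 a short CRE. Among the CREB targets not called, 7 had a promoter, of which 0 held a full CRE and 6 a short CRE, so short CREs were not limited to the targets that were lower. These matches describe letters in a window of the reference and not sites bound in these cells.

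The machinery of cAMP signalling did not move in one direction. Of 19 genes, 7 were called higher and 3 lower (median 0.10), and 5 were lower with the replicate block and also without the replicate 1 libraries. *Akap12*, which anchors protein kinase A, rose by 1.47 on the log2 scale, *Adcy7*, an adenylyl cyclase, by 1.02, and *Prkar2a* and *Prkar2b*, regulatory subunits of protein kinase A, by 0.81 and 0.75. *Pde3b*, a phosphodiesterase, changed by -0.88, *Adcy6* by -0.40 and the catalytic subunit gene *Prkaca* by -0.38, the last no longer called relative to its chromosome's median.

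The IL-6 family ligand genes *Il11* and *Il6* were strongly lower, while *Lif* was higher and the common receptor chain was not called. *Il11* (chr7:4772373-4782859, minus strand) was at 2.07, 2.04 and 1.68 CPM in DKO A1 and 12.8, 10.2 and 13.4 CPM in LKB1 KO (log2 fold change -2.65, SE 0.28, edgeR FDR = 2.8e-07). *Il6* (chr5:30013114-30019981, plus strand) was at 0.366, 0.24 and 0.161 CPM in DKO A1 and 2.22, 2.02 and 1.43 CPM in LKB1 KO (log2 fold change -2.88, SE 0.38, edgeR FDR = 4.8e-06). The 3 DKO A1 values were below the LKB1 KO values for both of these ligand genes, with *Il6* near its detection limit in DKO A1. *Clcf1*, a cardiotrophin-like cytokine, fell by 0.94 (FDR = 0.0047, edgeR), a call that did not hold relative to the chromosome medians. *Lif* went the other way, at 14.2, 15.96 and 11.3 CPM in DKO A1 and 10.9, 9.42 and 7.43 CPM in LKB1 KO (log2 fold change 0.58, SE 0.15, edgeR FDR = 0.0045), and its call too was absent in that scaling. The common receptor chain *Il6st* (0.04) was not called, *Socs3* (-0.41), a feedback inhibitor, was called only with the replicate block (FDR = 0.0062), and *Osmr* changed by -0.50 and the feedback inhibitor *Socs2* by 1.33. In all, 3 of 23 members were called higher and 8 lower (median -0.02), 7 and 9 with the replicate block, and 5 were higher without replicate 3 of LKB1 KO.

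Chemokine genes were more often higher than lower. Of 21 tested, 8 were called higher and 2 lower, and the median log2 fold change was 0.37. *Cxcl14* was at 8.68, 9.03 and 12.3 CPM in DKO A1 and 0.747, 0.835 and 0.9999 CPM in LKB1 KO (log2 fold change 3.54, SE 0.20, edgeR FDR = 1.3e-09). *Cxcl12*, the ligand of CXCR4, was at 177, 238 and 247 CPM in DKO A1 and 54.2, 80.8 and 64.1 CPM in LKB1 KO (log2 fold change 1.73, SE 0.26, edgeR FDR = 2e-05). *Ccl2*, a monocyte attractant, was at 567, 649.6 and 547 CPM in DKO A1 and 189, 219.7 and 166 CPM in LKB1 KO (log2 fold change 1.62, SE 0.11, edgeR FDR = 4.7e-10). All 3 DKO A1 libraries exceeded all LKB1 KO libraries for these chemokines, and the neighbouring *Ccl7* differed by 1.68 (edgeR FDR = 2.7e-08). The neutrophil attractants *Cxcl1* (0.37) and *Cxcl2* (0.30) did not pass. *Cxcl5* (0.39, FDR = 0.071, edgeR) passed only with the replicate block (FDR = 0.036). *Ccl28* was lower (-1.95) at a level under 1 CPM, and *Ccl25* (-0.62) lost its call when replicate 2 or 3 of DKO A1 or replicate 1 of LKB1 KO was left out.

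Other cytokine and growth factor genes moved in both directions, with 20 of 46 called higher, 10 lower and a median of 0.40. *Igf1* was at 3.902, 6.87 and 5.698 CPM in DKO A1 and 0.294, 0.371 and 0.357 CPM in LKB1 KO (log2 fold change 3.999, SE 0.56, edgeR FDR = 9.6e-06). *Pdgfb* was at 6.07, 8.52 and 7.28 CPM in DKO A1 and 0.996, 0.743 and 0.643 CPM in LKB1 KO (log2 fold change 3.19, SE 0.31, edgeR FDR = 1.3e-07). *Hbegf*, an EGF receptor ligand like *Areg*, was at 38.5, 42.6 and 37.1 CPM in DKO A1 and 15.3, 12.3 and 9.93 CPM in LKB1 KO (log2 fold change 1.66, SE 0.23, edgeR FDR = 7.4e-06). Each of these ligands was higher in every DKO A1 library. Among those lower, *Vegfa*, the angiogenic growth factor, was at 39.7, 34.1 and 40.4 CPM in DKO A1 and 136, 104 and 128 CPM in LKB1 KO (log2 fold change -1.69, SE 0.15, edgeR FDR = 4.4e-08). *Ereg*, another EGF receptor ligand, was at 43.9, 33.8 and 29.2 CPM in DKO A1 and 121, 91.2 and 104 CPM in LKB1 KO (log2 fold change -1.56, SE 0.21, edgeR FDR = 6.6e-06). The EGF receptor ligands thus did not share a direction, since *Areg* and *Ereg* fell while *Hbegf* rose.

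Genes of the NF-κB pathway were balanced, with 9 of 31 called higher and 8 lower (median 0.06), and 5 lower relative to the chromosome medians. Targets and inhibitors of the pathway were found in both directions. *Vcam1*, an adhesion molecule, was at 41.5, 70.2 and 63.5 CPM in DKO A1 and 14.1, 18.4 and 13.5 CPM in LKB1 KO (log2 fold change 1.93, SE 0.22, edgeR FDR = 7.5e-07). *Tnfaip3*, which encodes the inhibitor A20, was at 60.02, 71.9 and 53.4 CPM in DKO A1 and 28.4, 27.1 and 21.3 CPM in LKB1 KO (log2 fold change 1.27, SE 0.13, edgeR FDR = 2.4e-07). *Nfkbia*, which encodes IκBα, was at 115, 142 and 113 CPM in DKO A1 and 72.7, 76.7 and 59.4 CPM in LKB1 KO (log2 fold change 0.83, SE 0.11, edgeR FDR = 8e-06). The DKO A1 values exceeded the LKB1 KO values in every library of these 3 genes. The IL-1 receptor gene *Il1r1* was lower, at 93.2, 100.2 and 83.4 CPM in DKO A1 and 129, 163 and 151 CPM in LKB1 KO (log2 fold change -0.68, SE 0.14, edgeR FDR = 0.00064), and *Irak1*, a kinase of the same receptor, changed by -0.47. *Irak3*, an inhibitor of that signalling, was lower as well (log2 fold change -0.92, SE 0.26, edgeR FDR = 0.0084), a call lost without replicate 1 of DKO A1. The acute phase gene *Saa3*, a target, was at 0.0488, 0.09601 and 0.115 CPM in DKO A1 and 1.11, 2.69 and 1.36 CPM in LKB1 KO (log2 fold change -4.26, SE 1.40, edgeR FDR = 0.021), and lost its call without any 1 of the DKO A1 libraries or without replicate 2 of LKB1 KO. Of 31 interferon-stimulated genes, 3 were called higher and 3 lower, and 8 and 9 with the replicate block. Those higher were *Ifi27* (1.12), the transcription factor gene *Irf1* (0.57), which lost its call relative to the chromosome medians, and *B2m*, the light chain of MHC class I (0.47), which lost it without replicate 2 of DKO A1. Those lower were *Psmb8*, an immunoproteasome subunit (-3.36), *Cgas*, the cytosolic DNA sensor (-1.07), and the MHC class I gene *H2-D1* (-0.45), of a family of near-identical genes whose counts are uncertain and no longer called relative to the chromosome medians.

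Extracellular matrix genes were more often higher. Of 25 collagen genes, 14 were called higher and 6 lower (median 0.86), or 12 and 3 relative to the chromosome medians. *Col1a2* (chr6:4504814-4541544, plus strand) was at 199.8, 279.9 and 258 CPM in DKO A1 and 45.0, 73.4 and 70.7 CPM in LKB1 KO (log2 fold change 1.96, SE 0.28, edgeR FDR = 1.5e-05). *Col1a1*, its partner chain in type I collagen, was at 2356, 2951 and 2792 CPM in DKO A1 and 1248, 1645 and 1563 CPM in LKB1 KO (log2 fold change 0.86, SE 0.21, edgeR FDR = 0.0025). *Col11a1*, a fibrillar collagen, was at 61.5, 84.8 and 80.8 CPM in DKO A1 and 14.6, 21.1 and 25.7 CPM in LKB1 KO (log2 fold change 1.89, SE 0.32, edgeR FDR = 7.6e-05). Type I collagen genes were higher in every DKO A1 library, whereas the basement membrane chains *Col4a1* (-0.67) and *Col4a2* (-0.70) were lower, *Col4a1* without a call relative to the chromosome medians. Of 33 other matrix proteins and proteoglycans, 18 were higher and 5 lower (median 0.64). *Lama4*, a laminin chain, was at 13.6, 14.8 and 16.3 CPM in DKO A1 and 0.815, 0.859 and 0.714 CPM in LKB1 KO (log2 fold change 4.22, SE 0.42, edgeR FDR = 7.8e-07). *Postn*, periostin, differed by 3.43 (SE 0.84) on few counts, with means of 0.443 CPM in DKO A1 and 0.0379 CPM in LKB1 KO. *Fbln5* and *Fbn2*, components of elastic fibres and microfibrils, differed by 2.28 and 2.25. *Fbln5* was low as well, at means of 1.06 and 0.217 CPM, and in A2 it was below LKB1 KO (-3.66). The large chondroitin sulfate proteoglycans *Vcan* (-1.72) and *Acan* (-1.07) fell, as did *Dcn*, a small proteoglycan described below.

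Among 29 matrix proteases and inhibitors, 10 were higher and 5 lower (median 0.42). *Adamts2*, a procollagen peptidase, was at 13.6, 19.1 and 17.97 CPM in DKO A1 and 4.21, 5.59 and 4.36 CPM in LKB1 KO (log2 fold change 1.84, SE 0.27, edgeR FDR = 2.3e-05), while *Mmp2*, a gelatinase, was at 125, 159 and 199 CPM in DKO A1 and 370.1, 469.6 and 567 CPM in LKB1 KO (log2 fold change -1.54, SE 0.28, edgeR FDR = 0.00016). The groups were separate for both genes. Contractile and mesenchymal genes were higher in 10 of 26 and lower in 3 (median 0.30). *Myl9*, a myosin light chain, was at 10.6, 14.2 and 8.69 CPM in DKO A1 and 1.27, 0.975 and 0.571 CPM in LKB1 KO (log2 fold change 3.56, SE 0.32, edgeR FDR = 4.5e-08). *Tpm1*, tropomyosin 1, was at 925, 1024 and 1130.0 CPM in DKO A1 and 470.4, 434 and 444 CPM in LKB1 KO (log2 fold change 1.19, SE 0.081, edgeR FDR = 8.5e-10). *Cnn1*, calponin, differed by 1.995 and *Tagln*, transgelin, by 2.06, the latter losing its call with unstranded counts. The 3 lower members were *Twist2* (-0.89) and *Snai1* (-0.68), transcription factors of mesenchymal cells, and the integrin gene *Itgb1* (-0.44), no longer called relative to the chromosome medians. *Acta2*, smooth muscle actin, was not called (0.53, edgeR FDR = 0.16) except with the replicate block (FDR = 0.00094), and its values overlapped.

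Genes of glycolysis and the hypoxia response were lower or not called, in contrast to the matrix genes. Of 27 tested, 15 were called lower and 0 higher, with a median log2 fold change of -0.43. With the replicate block 3 were higher and 18 lower, relative to the chromosome medians 0 and 17, and without replicate 2 of LKB1 KO 1 was higher. *Slc2a1* (chr4:119108711-119137983, plus strand), the glucose transporter GLUT1, was at 98.2, 109.6 and 98.6 CPM in DKO A1 and 157, 186 and 172 CPM in LKB1 KO (log2 fold change -0.75, SE 0.15, edgeR FDR = 0.00037). *Ldha*, lactate dehydrogenase A, was at 529, 513 and 561 CPM in DKO A1 and 705, 812 and 827 CPM in LKB1 KO (log2 fold change -0.55, SE 0.11, edgeR FDR = 0.00051). *Egln1*, a prolyl hydroxylase of the oxygen sensor, was at 51.9, 55.6 and 60.8 CPM in DKO A1 and 95.1, 110.3 and 117 CPM in LKB1 KO (log2 fold change -0.94, SE 0.20, edgeR FDR = 0.00077). No DKO A1 library reached the lowest LKB1 KO library in these genes. *Bnip3*, a mitophagy receptor induced by hypoxia, differed by -1.27, *Hk2*, a hexokinase, by -0.63 and the glycolytic enzyme genes *Pgk1* and *Gapdh* by -0.57 and -0.44. *Pdk1*, which encodes an inhibitory kinase of pyruvate dehydrogenase, was called at -1.08 but not without replicate 1 or 2 of DKO A1 or replicate 2 or 3 of LKB1 KO.

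Sterol and fatty acid synthesis genes were mostly not called, with 3 of 31 higher and 6 lower (median -0.14), and 1 higher and 3 lower relative to the chromosome medians. The count of lower calls was 3 without replicate 1 of DKO A1 or replicate 2 of LKB1 KO and 11 without replicate 3 of DKO A1. *Scd1*, a fatty acid desaturase, was lower (-0.95), while *Fasn*, fatty acid synthase, was higher at 1051, 1081 and 1178 CPM in DKO A1 and 715, 749 and 717 CPM in LKB1 KO (log2 fold change 0.60, SE 0.097, edgeR FDR = 5e-05). Of 24 stress and antioxidant genes, 4 were higher and 9 lower (median -0.25), and none of the 4 remained called relative to the chromosome medians, where *Shmt2* (-0.0067) and *Txnrd1* (-0.065) changed sign. *Hmox1*, heme oxygenase 1, was at 61.4, 69.2 and 67.7 CPM in DKO A1 and 116, 129 and 130.4 CPM in LKB1 KO (log2 fold change -0.92, SE 0.10, edgeR FDR = 8e-07).

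Cell cycle and replication genes were called higher in 8 of 32 and lower in 12 (median -0.14), but only 2 remained higher relative to the chromosome medians. *Mki67*, the gene of the proliferation antigen Ki-67, was at 633, 629 and 682 CPM in DKO A1 and 863, 898 and 895 CPM in LKB1 KO (log2 fold change -0.45, SE 0.072, edgeR FDR = 4.7e-05). *Ccnd2*, a D-type cyclin, differed by -1.20, and the replication licensing genes *Mcm5* and *Mcm3* by -0.60 and -0.39. *Cdk6*, a kinase partner of D-type cyclins, rose by 0.72. Genes of the p53 and INK4-ARF pathways were higher in 7 of 22 and lower in 6, or 3 and 5 relative to the chromosome medians. *Cdkn1a*, which encodes the cyclin-dependent kinase inhibitor p21, was at 4.39, 3.77 and 4.94 CPM in DKO A1 and 12.8, 12.7 and 15.6 CPM in LKB1 KO (log2 fold change -1.65, SE 0.24, edgeR FDR = 2e-05). *Cdkn2b*, which encodes the inhibitor p15, was at 42.0, 49.8 and 50.2 CPM in DKO A1 and 26.5, 29.9 and 26.7 CPM in LKB1 KO (log2 fold change 0.77, SE 0.10, edgeR FDR = 5.5e-06). The 2 inhibitors therefore moved in opposite directions. Of 17 Hox genes tested, 3 were higher and 1 lower; *Hoxa5*, *Hoxa6* and *Hoxa7* differed by 0.74, 0.82 and 0.91 and *Hoxa13* by -0.69. Of 8 sex-linked genes, 1 was higher and 1 lower, *Ddx3y* by 0.24 and *Uty* by -0.26. The call of *Ddx3y* was lost without replicate 2 of either group, and that of *Uty* without replicate 1 of DKO A1 or replicate 3 of LKB1 KO.

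**Figure D2:**
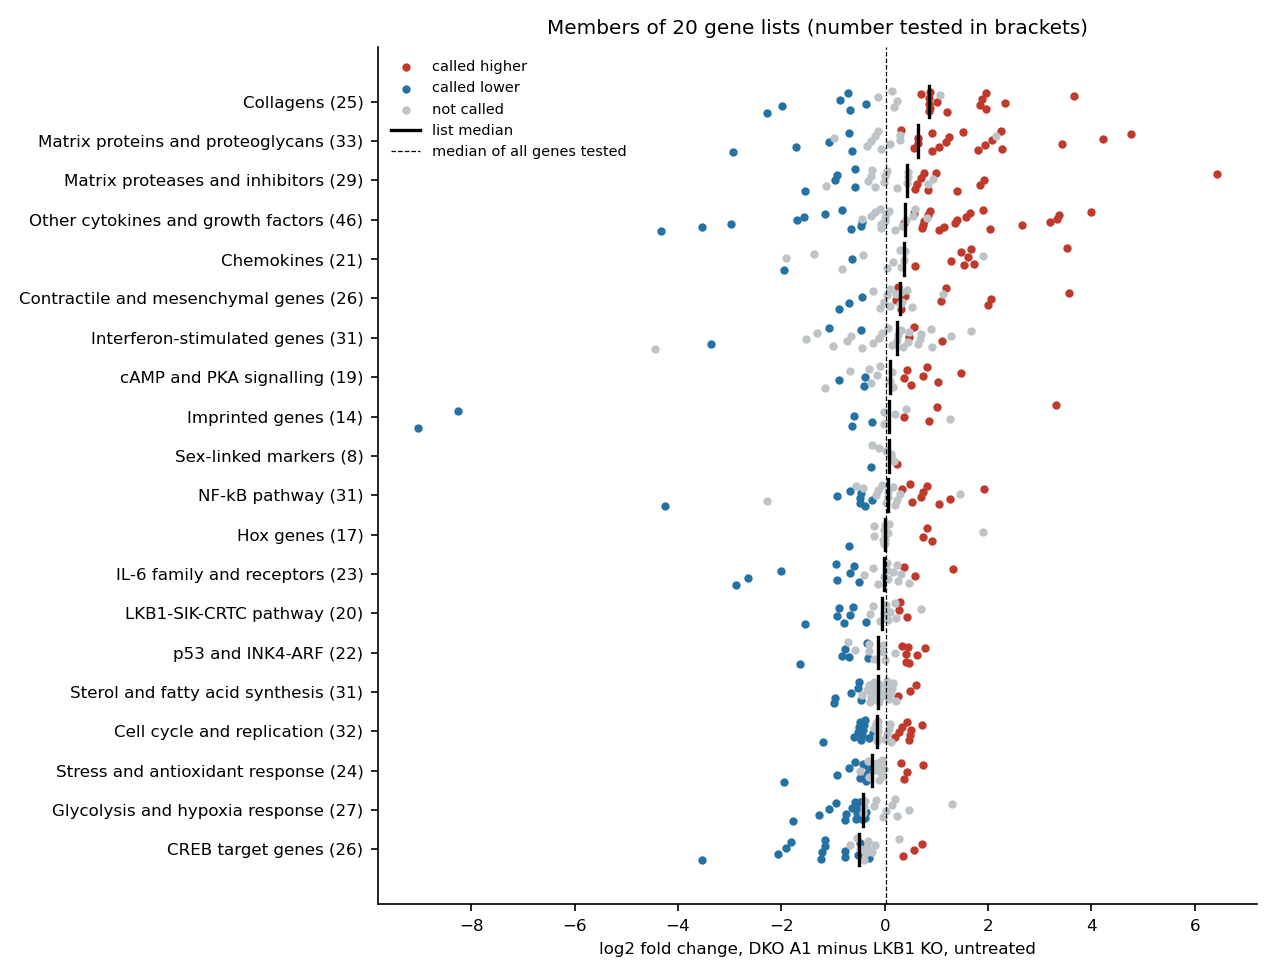
Log2 fold changes of untreated DKO A1 against LKB1 KO for the members of 20 gene lists. Each point is 1 tested gene, the thick mark is the median of the list and the dashed line is the median of all 17522 genes (0.02). Collagens and matrix proteins lie mostly to the right of the line, and CREB targets and glycolysis genes mostly to the left.

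The largest changes among well-expressed genes are given by direction. They were the 12 called genes with the largest fold change in each direction that had a mean log2 CPM above 3 over the 6 libraries and no overlap between the groups, so their values are a description of the extremes. The 12 higher genes differed by 3.07 to 5.35 and the 12 lower genes by 2.58 to 6.99 on the log2 scale. Among the higher genes, 3 are given with their values. *Wnt5a* (chr14:28504750-28527448, plus strand), a ligand of the non-canonical Wnt pathway, was at 35.9, 44.9 and 51.1 CPM in DKO A1 and 0.838, 1.04 and 1.36 CPM in LKB1 KO (log2 fold change 5.35, SE 0.28, edgeR FDR = 2.5e-11). *Ogn*, the small proteoglycan osteoglycin, was at 21.7, 29.8 and 34.1 CPM in DKO A1 and 0.521, 1.16 and 1.45 CPM in LKB1 KO (log2 fold change 4.77, SE 0.46, edgeR FDR = 9.9e-08). *Bmp2*, a bone morphogenetic protein, was at 25.3, 38.2 and 43.1 CPM in DKO A1 and 1.45, 4.41 and 4.76 CPM in LKB1 KO (log2 fold change 3.33, SE 0.45, edgeR FDR = 6.9e-06). For all 3 genes the lowest DKO A1 library was several times the highest LKB1 KO library. The others were *Fam198b* (5.30), *Col8a1*, a short-chain collagen (3.66), *Cdh18*, a cadherin (3.52), *Gpc4*, a glypican (3.52), *Ndnf*, a secreted neurotrophic factor (3.40), *Barx2*, a homeobox factor (3.37), *Insyn1* (3.35), *Tspan7*, a tetraspanin (3.16), and *Serpina3h* (3.07), a member of a family of near-identical genes whose counts are uncertain.

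Of the lower genes, 6 are given with their values. *Cspg4* (chr9:56865033-56899870, plus strand), the NG2 proteoglycan of pericytes and progenitors, was at 0.244, 0.07201 and 0.115 CPM in DKO A1 and 17.2, 20.02 and 18.2 CPM in LKB1 KO (log2 fold change -6.99, SE 0.31, edgeR FDR = 2e-12). *Hgf*, hepatocyte growth factor, was at 1.17, 0.912 and 1.95 CPM in DKO A1 and 23.1, 24.6 and 33.8 CPM in LKB1 KO (log2 fold change -4.33, SE 0.37, edgeR FDR = 2.6e-08). *Tnfsf11*, which encodes the osteoclast differentiation factor RANKL, was at 7.95, 7.13 and 4.78 CPM in DKO A1 and 46.8, 49.9 and 60.1 CPM in LKB1 KO (log2 fold change -2.98, SE 0.30, edgeR FDR = 1e-06). *Cspg4* was close to absent from DKO A1, and all 3 genes were far lower in every DKO A1 library than in any LKB1 KO library. *Mitf*, with a full CRE at 1 of its 3 starts, was at 20.5, 17.5 and 13.9 CPM in DKO A1 and 95.2, 118 and 115 CPM in LKB1 KO (log2 fold change -2.66, SE 0.15, edgeR FDR = 4.4e-11), and *Dcn*, decorin, was at 31.7, 19.8 and 34.3 CPM in DKO A1 and 228, 205 and 222 CPM in LKB1 KO (log2 fold change -2.93, SE 0.30, edgeR FDR = 2.3e-07). *Auts2*, a nuclear regulator of transcription, was at 0.561, 0.6001 and 0.391 CPM in DKO A1 and 21.2, 25.1 and 22.9 CPM in LKB1 KO (log2 fold change -5.47, SE 0.21, edgeR FDR = 2.8e-13). The remaining genes were *Coro2a*, an actin-binding coronin (-4.35), *Slit3*, a secreted guidance ligand (-3.76), *Ucp2*, a mitochondrial carrier (-3.33), *Mgst1*, a microsomal glutathione transferase (-2.78), *Thbd*, thrombomodulin (-2.64), and *Sall1*, a zinc finger factor (-2.58).

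**Figure D3:**
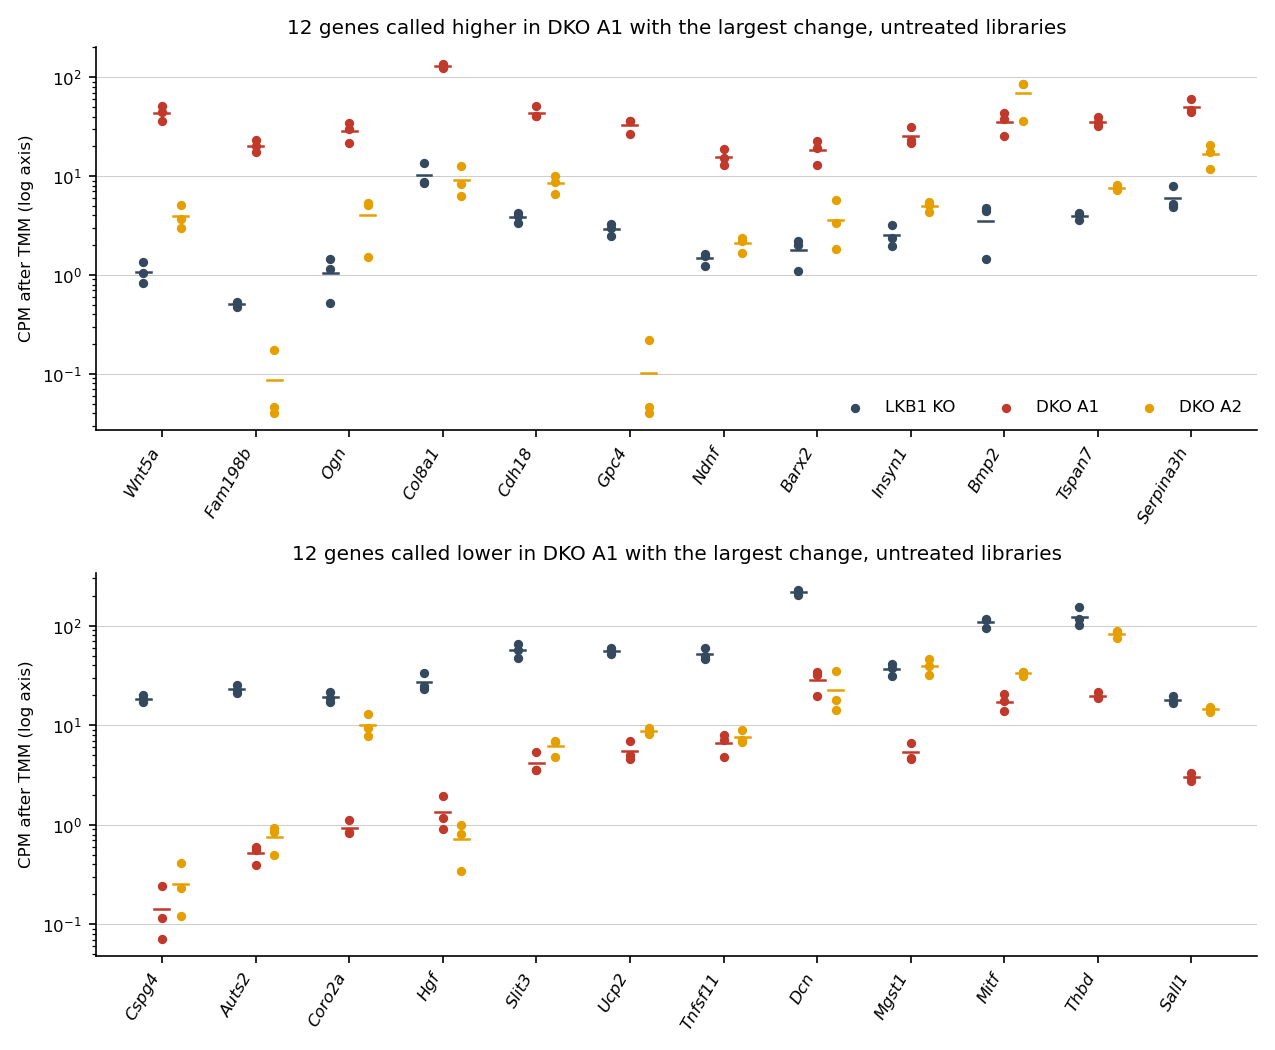
The 12 genes with the largest increase and the 12 with the largest decrease in DKO A1 against LKB1 KO, untreated. Points are CPM of single libraries on a log axis for LKB1 KO, DKO A1 and DKO A2. The groups LKB1 KO and DKO A1 do not overlap in any of the 24 genes, which is part of how the genes were chosen, and in *Fam198b* and *Gpc4* the A2 points lie on the other side of LKB1 KO.

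Some genes were nearly absent from 1 group. Genes with 3 counts or fewer in every library of one group and over 1 CPM in every library of the other were sought after the values had been seen. There were 19 nearly absent from DKO A1 and 2 nearly absent from LKB1 KO. Those without a count in any DKO A1 library included *Brinp3*, at least 64.03-fold lower, *Tram1l1*, at least 36.3-fold, *Gpr50*, at least 34.05-fold, *Ptprd*, a receptor tyrosine phosphatase, at least 31.96-fold, *Wt1*, the Wilms tumor transcription factor, at least 29.3-fold, and *Mest*, an imprinted gene, at least 21.2-fold, taking 3 counts per library as the floor. The imprinted antisense transcript *Kcnq1ot1* had 1, 2 and 0 counts in DKO A1 and 432, 347 and 273 in LKB1 KO, a ratio of 342-fold (95% counting interval 117 to 1662). For *Aim2*, a cytosolic DNA sensor, the ratio was 183-fold (95% counting interval 71.3 to 674). The 2 genes nearly absent from LKB1 KO, *Tmem144* and *Dgkk*, were higher in DKO A1 by 49.5-fold (95% counting interval 16.6 to 243) and 30.6-fold (95% counting interval 14.6 to 77.02). In WT *Tmem144* was at a mean of 3.699 CPM, above the 1.15 CPM of DKO A1, and *Dgkk* had no count. Of the 19 lost genes, 16 were also at 3 counts or fewer in every DKO A1 library given IL-1β. Among 14 imprinted genes tested, 4 were called higher and 5 lower, and the lower calls were 3 without replicate 1 or 3 of DKO A1 or replicate 2 of LKB1 KO.

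Both groups expressed fibroblast genes. Of 14 fibroblast markers 12 were tested, with 3 called higher and 2 lower, and their summed level ranged from 9209 to 10110.0 CPM in DKO A1 and from 6995 to 7962 CPM in LKB1 KO. *Col1a1*, *Vim*, *Pdgfra* and *Pdgfrb* were expressed, at means of 2699, 3049, 246 and 93.96 CPM in DKO A1, whereas *Thy1* and *Lum* were at or near 0 in both groups (0.0153 and 0.0309 CPM, and 0.0399 and 0.0153 CPM). Markers of other cell types ranged widely in level. Epithelial markers (11 listed, 3 tested, 1 lower) summed to 0.512 to 1.03 CPM in DKO A1 and 1.11 to 1.55 CPM in LKB1 KO, and *Esrp1* had no count. Endothelial markers (8 listed, 3 tested, 0 called) summed to 3.401 to 4.66 against 3.0 to 3.46 CPM. Leukocyte markers (10 listed, 3 tested, 2 higher) summed to 6.89 to 8.56 against 4.404 to 5.93 CPM, with *Cd3e*, *Adgre1* and *Tyrobp* at 0. The leukocyte markers higher were *Lyz2*, at under 1 CPM, and *Cd68*, which lost its call without replicate 1 or 3 of DKO A1 or replicate 2 or 3 of LKB1 KO. Skeletal muscle markers (9 listed, 1 tested, 0 called) summed to under 1 CPM in every library.

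Adipocyte markers were higher in 3 of the 4 tested of 8, namely *Fabp4*, a fatty acid binding protein, at 12.7, 14.5 and 11.8 CPM in DKO A1 and 5.61, 6.78 and 6.31 CPM in LKB1 KO, *Lpl*, lipoprotein lipase (1.61), and *Cebpa*, an adipogenic factor (1.07). Their summed level was 23.7 to 27.4 CPM in DKO A1 and 14.2 to 14.4 CPM in LKB1 KO, with *Adipoq* and *Lep* at or near 0. Of 5 chondrocyte and osteoblast markers tested of 11, 1 was higher and 2 lower, the higher one, *Col2a1*, at under 1 CPM and without a call when any 1 of the DKO A1 libraries or replicate 1 or 3 of LKB1 KO was left out. *Sox9* was nearly equal in both groups (174 and 175 CPM, -0.01), and the list summed to 279.9 to 287 CPM in DKO A1 and 341 to 350.1 CPM in LKB1 KO, with *Ibsp* at 0. Of 5 neural markers tested of 9, *Nes* (0.82) and *Mbp* (0.73) were higher and *Tubb3* (-1.90) lower, with *Sox2* and *Sox10* at 0, and the list summed to 189 to 209.9 CPM in DKO A1 and 149.9 to 169 CPM in LKB1 KO. These markers were named after their values had been seen, and their part in the other results was not tested. In bulk RNA, fewer cells with a transcript and less of it per cell cannot be told apart.

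The direction of change depended on the chromosome. On chromosomes 10, 9 and 11 the median log2 fold change was 0.39, 0.32 and 0.29, and 50.86%, 45.47% and 43.74% of the tested genes were called higher, against 18.9% over all genes. Chromosomes 17, 8 and 19 had medians of -0.38, -0.37 and -0.35, with 49.77%, 50.44% and 49.56% called lower, against 16.4%. The 3 chromosomes with the highest medians held 17.64% of the genes tested and 43.2% of those called higher, and the 3 with the lowest medians held 13.38% of the genes tested and 40.72% of those called lower. The medians of the 3 same-numbered library pairs were nearly equal, at 0.40, 0.40 and 0.39 for chromosome 10 and -0.38, -0.38 and -0.38 for chromosome 17. Each of these 6 chromosomes kept its sign in all 4 blocks of its genes when these were divided evenly by position, such as 0.37, 0.36, 0.40 and 0.42 on chromosome 10.

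With each gene read relative to the median of its chromosome, an alternative chosen after the data were seen, 4183 genes were called, 2169 higher and 2014 lower (23.9%). Under this scaling the calls of *Crtc2*, *Sik1*, *Hdac4*, *Crem*, *Areg*, *Dio2*, *Pde10a*, *Nr4a1*, *Nr4a2*, *Nr4a3*, *Il6*, *Il11* and *Vegfa* remained, and 11 CREB targets were lower against 13. Of the 13, *Pde10a* and *Dusp1* lie on chromosome 17, as do *Sik1*, *Vegfa* and *Cdkn1a*, and *Junb* and *Irs2* lie on chromosome 8, and *Dusp1*, *Junb* and *Irs2* lost their calls, while *Per1*, not called in the main test, gained one (-0.47). In the other direction, *Ccl2*, *Ccl7* and *Col1a1* lie on chromosome 11. The part of the chromosome-wide difference in the values of these genes was not tested beyond this scaling.

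**Figure D4:**
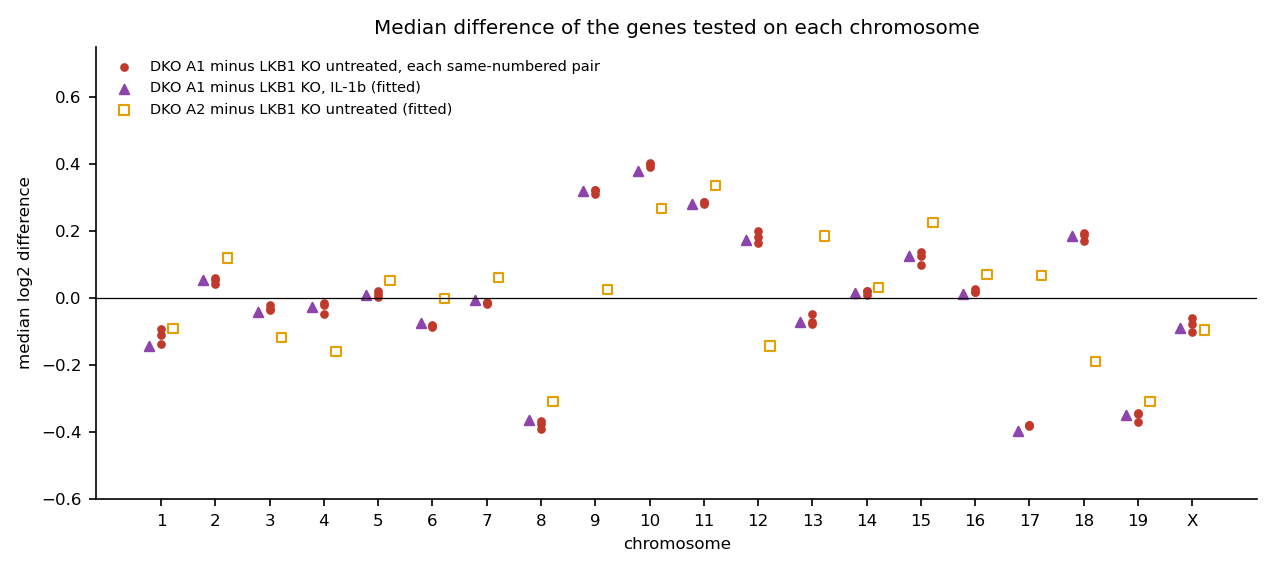
Median log2 fold change of the tested genes of each chromosome for DKO A1 against LKB1 KO. Points show the 3 same-numbered pairs of untreated libraries, and the other symbols show the fitted medians with IL-1β and those of clone A2 against LKB1 KO. Chromosomes 9, 10 and 11 lie above and 8, 17 and 19 below 0 for DKO A1 under both treatments, while for A2 chromosomes 9 and 17 lie near 0.

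The same genotypes given IL-1β share no library with the untreated comparison and so repeat it in other libraries of the same clone. There 6437 genes were called (36.7%), 3399 higher (19.4%) and 3038 lower (17.3%). Of the 3303 genes higher in untreated cells, 2792 were higher with IL-1β (84.53%, or 82.14% of the IL-1β list), and 2 were lower. Of the 2878 lower genes, 2448 were lower (85.06%, or 80.58%), and 0 were higher. All 24 genes with the largest changes were called in the same direction. Among the CREB targets 16 were lower and 3 higher with IL-1β. *Il6* differed by -4.33 with IL-1β and -2.88 without, *Il11* by -3.20 and -2.65, *Areg* by -4.38 and -3.53, and *Nr4a1* by -1.25 and -1.24 on the log2 scale. *Ptgs2*, not called in untreated cells (-0.54), was called with IL-1β (-1.68, edgeR FDR = 2.7e-05), but the difference between the 2 effects did not pass the test (edgeR FDR = 1).

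The difference between the 2 effects of genotype passed the test for 5 genes (0.0285%), and 433 genes had an unadjusted p under 0.05. *Lif* was higher in DKO A1 without IL-1β, as given above, and lower with it, at 42.5, 42.6 and 41.4 CPM in DKO A1 and 81.01, 67.9 and 80.8 CPM in LKB1 KO. Its log2 fold change went from 0.58 to -0.86 (difference -1.44, SE 0.21, edgeR FDR = 0.015). *Ccl2* remained higher with IL-1β but by less, at 1424, 1465 and 1508 CPM against 842, 883 and 871 CPM (1.62 to 0.76, edgeR FDR of the difference = 0.031). *Tbx3*, a T-box factor, *Rab11fip1*, a Rab11 effector, and *Slc39a14*, a zinc and iron transporter, were the other 3, with differences of -0.68, -0.87 and -0.67. All 5 differences were more negative with IL-1β, but with the replicate block 10 of 36 such genes were more positive. The number of such genes ranged from 0 to 4 when single libraries were left out.

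**Figure D5:**
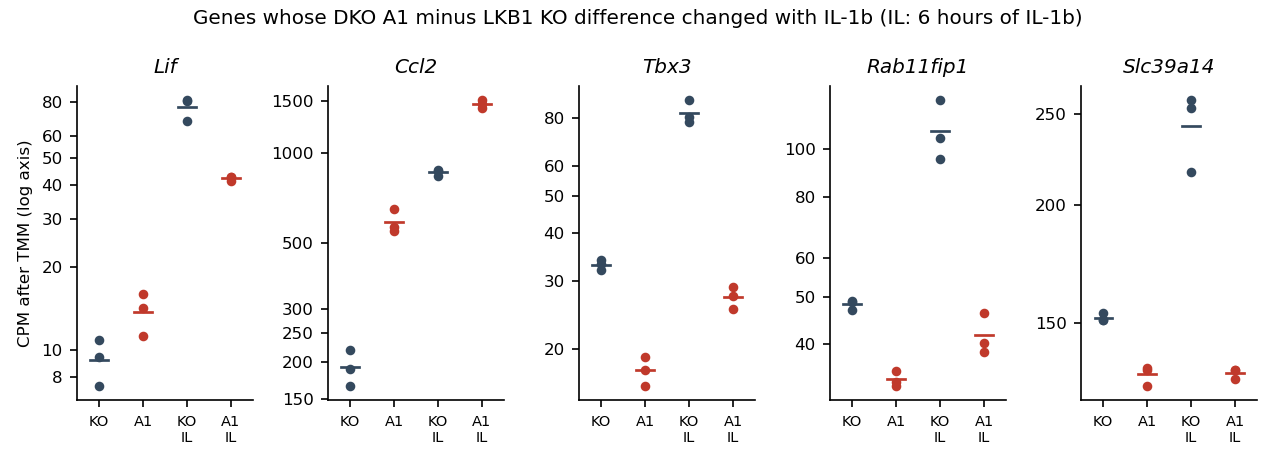
The 5 genes whose difference between DKO A1 and LKB1 KO changed with IL-1β. Points are CPM of single libraries on a log axis for LKB1 KO and DKO A1, untreated and after IL-1β for 6 hours, with a bar at each group mean. In *Lif* DKO A1 lies above LKB1 KO without IL-1β and below it with IL-1β.

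Clone A2 is the other line in which *Crtc2* was edited. Its comparison with LKB1 KO (5655 genes called, 32.3%) shares the LKB1 KO libraries with that of A1, and the direct comparison of A1 with A2 (5692 called, 32.5%) shares the A1 libraries, so the values are set side by side without a count of agreement. *Areg* differed from LKB1 KO by -3.53 in A1 and -2.87 in A2, *Il11* by -2.65 and -3.33, *Il6* by -2.88 and -2.85, and *Nr4a3* by -1.91 and -1.72. The log2 differences between the clones for these 4 lay between -0.66 and 0.68. *Il11*, lower in every A2 library than in any A1 library, passed with the replicate block (edgeR FDR = 0.088, and 0.03 with the block), and the other 3 passed in neither fit. *Hdac4* (-1.54 and -1.26) was somewhat lower in A1 than in A2 (edgeR FDR = 0.039), and *Pde10a* clearly so (-1.82 and -0.72, edgeR FDR = 2.3e-06). *Slc2a1* (-0.75 and -0.68) and *Ldha* (-0.55 and -0.62) had like values in both clones. The chemokines *Cxcl14* (3.54 and 2.31), *Cxcl12* (1.73 and 1.105), *Ccl7* (1.68 and 0.88) and *Ccl2* (1.62 and 0.57) were higher in both. Of the 21 chemokines tested, 6 were called higher and 4 lower in A2, against 17.1% and 15.1% of all genes.

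Other genes separated the clones. *Vcam1*, *Tnfaip3* and *Nfkbia* were higher in A1 only, with A2 at 0.03, -0.22 and 0.02 against LKB1 KO and the clones differing by 1.90, 1.49 and 0.81 (edgeR FDR = 1.1e-06, 4.1e-08 and 1.2e-05). *Lif*, *Hbegf* and *Bdnf* were higher in A1 than in A2 by 1.49, 2.15 and 1.27. *Myl9* was at 0.745, 1.55 and 1.03 CPM in A2, close to LKB1 KO, and *Tpm1* at 314, 271 and 279.9 CPM, below it. Median changes against LKB1 KO were 0.86 in A1 and -0.13 in A2 for collagens, and -0.43 and -0.52 for glycolysis and hypoxia genes. For CREB targets they were -0.50 and -0.69.

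Of the 12 genes most increased in A1, 11 were called higher in A1 than in A2, and of the 12 most decreased 7 were called lower, where 16.7% and 15.8% of all genes were. The choice of these genes by their A1 values favours such calls. *Bmp2*, the increased gene without that call, had a higher mean in A2 (69.4 CPM) than in A1 (35.5 CPM). Its log2 difference, A1 minus A2, was -0.965 and passed only with the replicate block (edgeR FDR = 0.067, and 1.1e-05 with the block). *Wnt5a*, *Ogn* and *Col8a1* were higher in A1 than in A2 by 3.48, 2.84 and 3.84 (edgeR FDR = 1.8e-09, 1.1e-05 and 5.7e-11), with A2 at 1.86, 1.93 and -0.18 against LKB1 KO. *Fam198b* was at 17.5, 19.9 and 23.1 CPM in A1, 0.475, 0.534 and 0.524 CPM in LKB1 KO and 0.0403, 0.0463 and 0.176 CPM in A2. *Gpc4* was at 26.7, 36.2 and 36.5 CPM, 2.47, 3.25 and 2.98 CPM and 0.0403, 0.0463 and 0.2201 CPM. In both genes A1 lay above and A2 below LKB1 KO without overlap. *Cspg4*, *Hgf*, *Auts2*, *Tnfsf11* and *Dcn* were low in both clones, at means of 0.257, 0.723, 0.762, 7.62 and 22.5 CPM in A2, and between the clones only *Hgf* of these 5 passed, with the replicate block alone (0.88, edgeR FDR = 0.13, and 0.015 with the block). *Thbd* and *Sall1*, low in A1, were at 83.2 and 14.4 CPM in A2 against 124 and 18.02 CPM in LKB1 KO. Chromosome medians of A2 against LKB1 KO were 0.27 for chromosome 10 and 0.34 for chromosome 11, -0.31 for both 8 and 19, 0.03 for chromosome 9 and 0.07 for chromosome 17.

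DKO A1 differed from WT in 9704 genes (55.4%), a comparison that shares the DKO A1 libraries. For *Nr4a3* the means of DKO A1 and WT were 0.604 and 0.601 CPM, and for *Nr4a2* they were 9.22 and 8.01 CPM (edgeR FDR = 0.97 and 0.42). *Pde4b* (86.8 and 3.75 CPM), *Rgs2* (4.81 and 1.08 CPM) and *Dio2* (1.26 and 0.0251 CPM) stayed above WT. The WT line lacks the Y-linked transcripts that LKB1 KO and DKO A1 express (*Ddx3y* at 0.0161, 89.9 and 106 CPM). WT thus differs from both by more than the labelled genes, and the levels set against WT here and above are descriptions only.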

How the data were processed

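RNA-seq counts of 24 libraries of mouse embryonic fibroblasts were used, 3 in each of 8 groups, with groups and replicate numbers taken from the labels. The authors trimmed paired reads with Trim Galore 0.6.0, used STAR 2.7.8a with GRCm38 and the GENCODE vM24 annotation, and deposited the raw gene counts of STAR, as read pairs, unstranded and per strand. The sources disagree on the library kit, so strand was read from the counts: the second strand setting held 95.77% to 95.95% of the stranded pairs of the 6 libraries compared and was used. The 4 lines of each table that name no gene were left out. Symbols and positions came from GENCODE M21 on the same build, for 55144 of 55471 genes. Pairs that map to more than 1 place were not counted, so genes with near-identical copies are uncertain.

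Genes were filtered with filterByExpr (minimum count 10, minimum total 15), which left 17522, and scaled with TMM. The quasi-likelihood test of edgeR 4.0.16 in R 4.3.3 (limma 3.58.1) was fitted to all 24 libraries, 1 coefficient per group, and calls were made at an FDR (Benjamini-Hochberg) below 0.05. The common biological coefficient of variation came to 0.129. SE is that of the log2 fold change, from the F statistic. A median of 42404203 pairs per library on genes limits the precision of genes with few counts: 3 counts in a library were taken as the detection floor, and the 95% intervals of ratios (exact binomial on the summed counts) cover counting error only. An exact permutation test of 3 against 3 libraries cannot go below p = 0.1, so none was used for single genes. The code was tested on simulated counts.

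Same-numbered libraries deviated together from their group means (r of 0.629, 0.397 and 0.655 for DKO A1 with LKB1 KO, and 0.238 to 0.819 over all 84 same-numbered pairs of libraries), so the numbers pair the libraries, as a pattern in the counts and not from the labels. A fit with the number as a block is therefore given for part of the calls and list counts that it changes. Named genes were the members of the gene lists with the largest changes (up to 4 called per direction), and the 12 called genes with the largest fold change in each direction, groups that did not overlap and a mean log2 CPM over 3. The comparison, the lists and this rule were chosen with earlier results of these data known, and the reading of the mean as edgeR's average over the 6 libraries after an exploratory ranking. Markers of other cell types, the genes near 0 counts in 1 group and the other members named were chosen after their values were seen.

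Alternatives were DESeq2 1.42.0, other scalings (RLE, upper quartile), no filter or 10 counts in every library, unstranded counts, only the groups compared, the newer quasi-likelihood method, the replicate block and each library left out in turn. Leaving out all replicate 1 libraries and using the chromosome medians as offset were added after the data were seen. Promoters came from RefSeq on GRCm38.p6. The values of 2 genes are not reported here.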

Additional observations from a re-analysis of the deposited data

Results flagged for a closer look

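For 5 genes the effect of genotype differed between IL-1β and no treatment by a test of the difference itself (edgeR, FDR under 0.05). *Lif* had a log2 difference of -1.44, from 0.58 to -0.86 (FDR = 0.015). *Ccl2* had -0.86 (FDR = 0.031), *Rab11fip1* -0.87 (FDR = 0.031), *Tbx3* -0.68 (FDR = 0.031) and *Slc39a14* -0.67 (FDR = 0.026). In *Tbx3* the DKO A1 deficit went from -0.92 to -1.60, at 16.02, 17.6 and 19.1 CPM against 33.4, 32.2 and 34.1 CPM untreated and 27.4, 25.4 and 28.96 CPM against 80.7, 77.9 and 89.05 CPM with IL-1β. With the replicate number as a block all 5 differences had a lower FDR, the highest of them 0.0023.

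The 2 clones moved in opposite directions against LKB1 KO for *Fam198b* and *Gpc4*. *Fam198b* was higher in A1 (5.30) and lower in A2 (-2.52), and A1 exceeded A2 by 7.81 on the log2 scale (edgeR FDR = 4e-13). *Gpc4* had 3.52 in A1 and -4.80 in A2, with a difference of 8.31 (edgeR FDR = 2.4e-13). Both were measured at under 1 CPM in every A2 library, so their fitted values in A2 rest on few counts.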

How the results depend on the processing

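The count of 6181 genes called between untreated DKO A1 and LKB1 KO stayed within 1.5 times its value under every alternative run, from 4183 relative to the chromosome medians to 8424 with the replicate number as a block, and was 5220 to 5626 with single libraries left out. The counts for IL-1β, A1 against A2, A2 against LKB1 KO and A1 against WT stayed within 1.5 times under all alternatives run. The 5 genes whose genotype effect differed with IL-1β were all more negative with IL-1β. They became 12 with DESeq2 (2 more positive), 141 without a filter (30 more positive), 36 with the replicate block (10 more positive), 3 with unstranded counts, 3 with upper quartile scaling, 10 without the replicate 1 libraries, and 0 to 4 with 1 library left out. Relative to the chromosome medians the sign turned for *Stk11* (-0.087), *Sik3* (-0.056), *Cited2* (-0.024), *Acaca* (-0.035), *Shmt2* (-0.0067) and *Txnrd1* (-0.065), none of them called there. Over 171 named genes and all alternatives, 2735 of 2856 values kept their direction and call, 107 lost the call, 8 gained it and 6 turned. Of 952 list counts 104 moved by over 1.5 times. Of 320 chromosome medians 142 moved by more than the SD of the 3 library pairs, by at most 0.046 on the log2 scale, and the sign turned at some setting for 4 of 20 chromosomes, with medians within 0.024 of 0. The cause of these shifts was not tested. The replicate block ended no call between untreated DKO A1 and LKB1 KO among the named genes.

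Genes under 1 CPM rest on few counts at this depth, and 3 libraries of 1 clone cannot separate the edit from the clone.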
